A study of Homo sapiens with 6 samples.

Results

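The genes described here are the ATF4 amino acid response and the cytosolic tRNA synthetases, 39 genes chosen by symbol out of 24462 distinct symbols in bulk RNA sequencing of 2 cultured human cell lines. 1CT is an immortalized human colonic epithelial cell (HCEC) line labelled as a progenitor cell with wild type APC, and 1CT-A is the same line with APC knocked down. APC is the tumour suppressor that helps to mark β-catenin for destruction, and each genotype is represented by a single line. There were 3 libraries per line, made from total RNA of untreated cells kept in the same medium with EGF (20 ng/mL), hydrocortisone, insulin, transferrin, selenite and 2% serum. The 39 genes fall into 4 transcription factors, 6 stress effectors, 7 enzymes of amino acid synthesis, 20 synthetase subunits and 2 scaffold proteins of the synthetase complex.

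ATF4 is the transcription factor of the integrated stress response. When amino acids run short or the endoplasmic reticulum is stressed, kinases phosphorylate the translation factor eIF2, general protein synthesis slows, and the ATF4 mRNA is translated more efficiently. The protein then pairs with C/EBP factors on response elements in genes for amino acid synthesis, amino acid import and tRNA charging. Much of the control of ATF4 is therefore at translation, and its mRNA level is not a measure of the protein. The cytosolic tRNA synthetases each join an amino acid to its tRNA, and a part of them is held together in a large complex by the scaffold proteins.

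The C/EBP-ATF response element has the core TGATGNAA, which was searched on both strands in RefSeq promoter windows of GRCh38.p14 that run from 250 bases before to 50 bases after each annotated start. A window was given for 32 of the 39 genes, and 18 of the 39 were matched through an older symbol. The core was found in 10 of the 32, or 31.25%, against 571 of 15843 windows of protein-coding genes, or 3.604%. Since the genes were picked as known members of the response, this share is a description. A match is a stretch of letters and not a bound site. The 10 matches are shown so that the letters behind the count can be seen. Each is given 5′ to 3′ on the strand of its gene with the core, or its reverse complement, in capitals.
CEBPG: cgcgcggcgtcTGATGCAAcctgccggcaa
CHAC1: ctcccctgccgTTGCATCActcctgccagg
ASNS: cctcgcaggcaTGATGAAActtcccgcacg
AARS: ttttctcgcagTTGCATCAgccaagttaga
CARS: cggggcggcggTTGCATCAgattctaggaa
GARS: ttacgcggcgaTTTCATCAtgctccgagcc
IARS: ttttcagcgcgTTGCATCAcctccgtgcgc
MARS: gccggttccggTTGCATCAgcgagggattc
NARS: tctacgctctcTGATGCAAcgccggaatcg
TARS: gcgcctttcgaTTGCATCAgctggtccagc
On the forward strand these lie at chr19:33374060-33374089 (CEBPG), chr15:40953251-40953280 (CHAC1), chr7:30594834-30594863 (GARS), chr12:57488053-57488082 (MARS) and chr5:33440956-33440985 (TARS). On the reverse strand they lie at chr7:97872458-97872487 (ASNS), chr16:70289675-70289704 (AARS), chr11:3057407-3057436 (CARS), chr9:92293692-92293721 (IARS) and chr18:57621804-57621833 (NARS). The core ended 201 bases before the start in CHAC1 and 179 bases before it in AARS. In the other 8 genes it lay within 60 bases of the start on either side. CEBPG, AARS, CARS, IARS, MARS, NARS, TARS and CHAC1 share the variant TGATGCAA, and ASNS and GARS have TGATGAAA.

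The libraries held 7788679 to 8452258 counts in 1CT and 11158108 to 12602988 in 1CT-A. The 1CT replicates 1 and 2 differed from each other by a chi-square of 3.80 per degree of freedom over genes, and 1CT replicate 3 differed from them by 7.54 and 9.00, so results that turn on replicate 3 are given without it as well. The targeted gene APC was counted at 49.3, 43.8 and 46.6 CPM (counts scaled to a library total of 1000000) in 1CT and at 31.5, 30.0 and 34.4 CPM in 1CT-A, a log2 fold change of -0.58 ± 0.09 (SE, edgeR adjusted p = 1.76e-04). Of 12 epithelial markers, EPCAM, VIL1 and CLDN3 had no count in any library and KRT20, CDX2 and ELF3 had at most 3 in each. CDH1, KRT8 and CLDN4 had at most 14 in a library. CLDN7 had 196 to 308 counts and KRT18 had 36 to 109, while KRT19 had 20 to 34 in 1CT and none in 1CT-A. All 10 fibroblast and mesenchymal markers were counted. The epithelial markers summed to 41.3 to 45.5 CPM in 1CT and to 23.6 to 30.9 CPM in 1CT-A, and the mesenchymal markers to 4717 to 5761 CPM and 4391 to 4705 CPM. Their part in the results that follow was not tested.

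Of the 39 genes, 38 had enough counts for the test, with 65 to 11893 counts in a library, and VLDLR did not. At an adjusted p under 0.05 in edgeR, 15 were higher in 1CT-A and 6 were lower, which is 39.47% and 15.79% of the 38. Among all 12514 genes tested, 25.0% were called higher and 26.0% lower. The median log2 fold change of the 38 was 0.14 against -0.01 for all genes tested, and 30 of the 38 values were above 0. The median of these genes was 0.24 without 1CT replicate 3 and 0.09 with upper-quartile factors in place of TMM. In the edgeR fit none of the 38 reached a fold of at least 2 at an unadjusted p under 0.01, the thresholds of the study's methods, which 3.80% of the genes tested met upward and 9.60% downward. With the two-tailed per-gene test that the study's methods pair with these thresholds, PSAT1 met them, as did 2.81% of the genes tested upward and 6.19% downward. In bulk RNA, fewer cells with a transcript and less of it per cell cannot be told apart.

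**Figure D1:**
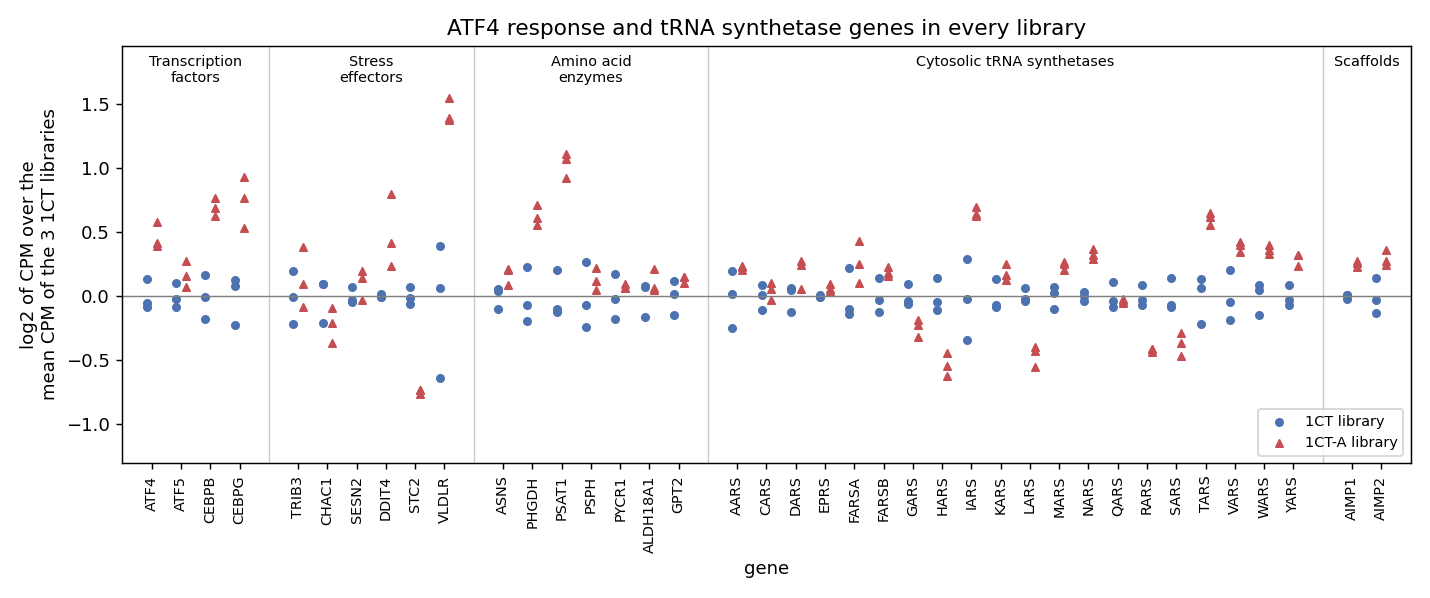
Each point is 1 library of 1CT (circles) or 1CT-A (triangles), as the log2 of its CPM over the mean CPM of the 3 1CT libraries, for all 39 genes grouped by role. The 1CT-A libraries lie above the 1CT libraries for ATF4, CEBPB, CEBPG, PHGDH, PSAT1, TARS and IARS, below them for STC2, HARS, LARS and RARS, and overlap them for TRIB3, SESN2 and CARS.

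Among the transcription factors, 3 of 4 (75.0%) were higher in 1CT-A and none was lower, beside 25.0% and 26.0% of all genes tested. Their summed level, most of it ATF4, was 489 ± 16.8 CPM in 1CT and 687 ± 26.4 CPM in 1CT-A (SD, n = 3). ATF4 itself was counted at 277, 282 and 321 CPM in 1CT and at 439, 385 and 391 CPM in 1CT-A. The lines did not overlap, and the log2 fold change was 0.43 ± 0.08 (SE, adjusted p = 8.32e-04). CEBPB, the C/EBP factor that is also a target of ATF4, was counted at 127, 113 and 99.9 CPM in 1CT and at 175, 182 and 192 CPM in 1CT-A. Every 1CT-A library stood above every 1CT library, with a log2 fold change of 0.66 ± 0.09 (SE, adjusted p = 3.58e-05). CEBPG, a short C/EBP factor that binds DNA as a partner of ATF4, had the fewest counts of the 4 transcription factors. It was at 13.1, 12.7 and 10.3 CPM in 1CT and 17.4, 22.9 and 20.4 CPM in 1CT-A. Its log2 fold change was the largest of the 4 genes at 0.71 ± 0.14 (SE, adjusted p = 0.00101). ATF5, a relative of ATF4 that is likewise controlled at translation, was counted at 69.4, 66.3 and 75.6 CPM in 1CT and at 85.1, 74.0 and 78.5 CPM in 1CT-A. These ranges overlap, and the log2 fold change of 0.13 ± 0.09 did not pass the test (SE, adjusted p = 0.24).

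The stress effectors, which are read as markers of an active response, did not move together. STC2, a secreted glycoprotein, took more counts than any other of the 39 genes, at 1407, 1361 and 1492 CPM in 1CT and 855, 855 and 836 CPM in 1CT-A. It was lower in every 1CT-A library, with a log2 fold change of -0.78 ± 0.06 (SE, edgeR adjusted p = 5.53e-07). DDIT4, an inhibitor of the growth kinase mTORC1 that also answers to hypoxia and glucocorticoid, was counted at 84.1, 85.5 and 84.4 CPM in 1CT and at 99.6, 147 and 113 CPM in 1CT-A. Its 1CT values lay close together and its 1CT-A values were spread out above them, with a log2 fold change of 0.46 ± 0.12 (SE, adjusted p = 0.00488). Without 1CT-A replicate 2, the highest of them, DDIT4 was at 0.30 (adjusted p = 0.0213).

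The other effectors did not pass the test. TRIB3, a pseudokinase that restrains ATF4, was counted at 14.0, 12.1 and 16.0 CPM in 1CT and at 15.0, 18.3 and 13.3 CPM in 1CT-A, with a log2 fold change of 0.10 ± 0.16 (SE, edgeR adjusted p = 0.605). CHAC1, which breaks down glutathione, was counted at 7.69, 9.54 and 9.50 CPM in 1CT and at 6.90, 8.34 and 7.70 CPM in 1CT-A, with a log2 fold change of -0.26 ± 0.16 (SE, adjusted p = 0.2). Both genes had overlapping ranges and the widest errors of the 38. SESN2, a leucine sensor upstream of mTORC1, ranged from 52.4 to 56.7 CPM in 1CT and from 52.9 to 61.7 CPM in 1CT-A, with a log2 fold change of 0.07 ± 0.09 (SE, adjusted p = 0.551). VLDLR, a lipoprotein receptor, was hit by 2, 4 and 3 reads in 1CT and by 12, 11 and 12 reads in 1CT-A. With the libraries of a line pooled, its counts over the pooled totals had a ratio of 2.71. The 95% interval of 1.28 to 6.42 covers counting error only. With every counted gene kept in the fit, its log2 fold change was 1.42 ± 0.62 (SE, adjusted p = 0.0585). VLDLR also entered the fits that left out 1CT replicate 1, 2 or 3, with adjusted p = 0.103, 0.0411 and 0.0548. In those fits it passed the filter on low counts only through 1CT-A, where it is higher, so no difference is read from them.

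Among the enzymes of amino acid synthesis, 2 of 7 were higher in 1CT-A and none was lower, and the 28.6% higher is near the 25.0% of all genes tested. PHGDH, which opens the serine pathway, was counted at 18.9, 20.6 and 25.4 CPM in 1CT and at 35.5, 31.8 and 33.0 CPM in 1CT-A. The lines did not overlap, and the log2 fold change was 0.59 ± 0.12 (SE, adjusted p = 0.00116). PSAT1, the transaminase of the next step, was counted at 25.7, 31.6 and 25.3 CPM in 1CT and at 52.2, 59.4 and 57.8 CPM in 1CT-A. This was the largest difference among the 38 genes, with a log2 fold change of 1.00 ± 0.10 (SE, adjusted p = 4.22e-06). It lay at the edge of the 2-fold threshold. PSAT1 passed this threshold in the two-tailed per-gene test modelled on the study's methods, without TMM factors and without the filter on low counts. The same held without 1CT replicate 2 and without 1CT-A replicate 1. PSPH, the phosphatase that releases serine at the end of the pathway, was counted at 13.1, 14.7 and 18.6 CPM in 1CT and at 16.8, 16.0 and 18.0 CPM in 1CT-A. The 1CT-A values lay inside the 1CT range, and the log2 fold change was 0.09 ± 0.14 (SE, adjusted p = 0.609).

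ASNS, the asparagine synthetase that is often used as a reporter of ATF4 activity, was counted at 62.6, 68.8 and 69.5 CPM in 1CT and at 77.1, 77.4 and 70.9 CPM in 1CT-A. All 1CT-A values were above the 1CT values by a small margin, and the log2 fold change of 0.13 ± 0.08 did not pass the test (SE, edgeR adjusted p = 0.215). The proline enzymes showed no call either. ALDH18A1, which makes the precursor of proline, ranged from 32.9 to 38.8 CPM in 1CT and from 38.0 to 42.4 CPM in 1CT-A, with a log2 fold change of 0.07 ± 0.09 (SE, adjusted p = 0.562). PYCR1, the mitochondrial reductase that completes proline, ranged from 111 to 141 CPM in 1CT and from 131 to 134 CPM in 1CT-A, with a log2 fold change of 0.03 ± 0.09 (SE, adjusted p = 0.769). GPT2, the mitochondrial alanine transaminase, ranged from 51.0 to 61.6 CPM in 1CT and from 60.7 to 62.9 CPM in 1CT-A, with a log2 fold change of 0.10 ± 0.09 (SE, adjusted p = 0.385).

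**Figure D2:**
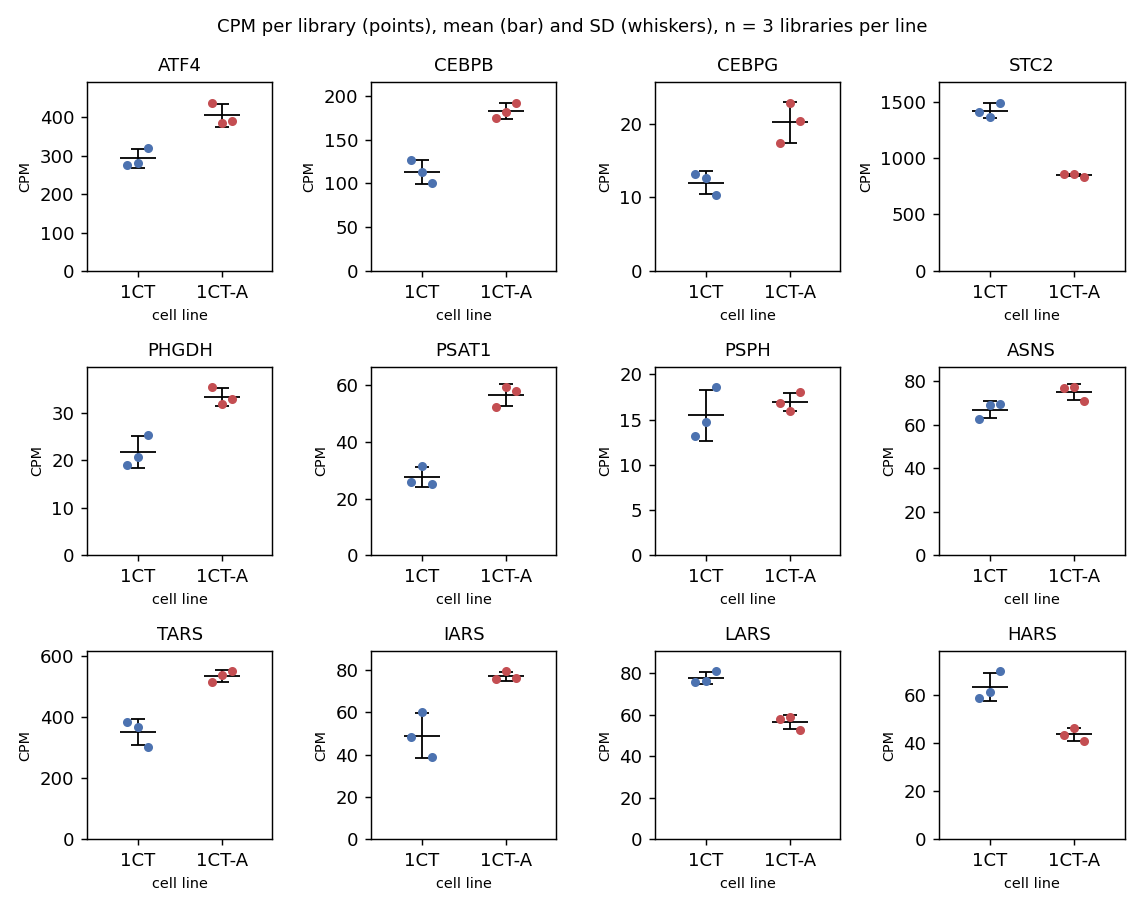
CPM in each library for 12 of the genes, with 1CT in blue and 1CT-A in red, the mean as a bar and the SD as whiskers (n = 3 libraries per line), on axes that start at 0. PSAT1 has means of 27.5 CPM in 1CT and 56.4 CPM in 1CT-A, while PSPH of the same pathway has 15.5 and 16.9 CPM.

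The 20 cytosolic synthetase subunits held calls in both directions. Their summed level was 2204 ± 71.9 CPM in 1CT and 2424 ± 29.6 CPM in 1CT-A (SD, n = 3). TARS alone had means of 352 and 535 CPM, which is most of the difference between these sums. Of the 20, 7 were higher in 1CT-A, 5 were lower and 8 did not pass the test. These are shares of 35.0% and 25.0%, beside 25.0% and 26.0% of all genes tested, so the share called lower was near that of any genes here. Their median log2 fold change was 0.15.

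TARS and IARS, which charge the tRNAs of threonine and isoleucine, had the largest positive values. TARS was counted at 385, 367 and 303 CPM in 1CT and at 516, 539 and 552 CPM in 1CT-A, with a log2 fold change of 0.57 ± 0.08 (SE, edgeR adjusted p = 7.7e-05). IARS was counted at 48.3, 59.9 and 38.6 CPM in 1CT and at 75.5, 79.3 and 76.1 CPM in 1CT-A, with a log2 fold change of 0.61 ± 0.12 (SE, adjusted p = 8.82e-04). Both were lowest in 1CT replicate 3, and without that library both were still called, each with a log2 fold change of 0.49. NARS, for asparagine, was counted at 93.1, 90.8 and 95.3 CPM in 1CT and at 114, 116 and 120 CPM in 1CT-A, with a log2 fold change of 0.29 ± 0.07 (SE, adjusted p = 0.00478). WARS, the tryptophan enzyme, was counted at 47.4, 54.2 and 55.7 CPM in 1CT and at 69.2, 65.8 and 67.1 CPM in 1CT-A, with a log2 fold change of 0.32 ± 0.09 (SE, adjusted p = 0.00755). None of these genes had overlapping libraries.

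The calls of VARS, YARS and MARS, for valine, tyrosine and methionine, depended on single libraries. VARS was counted at 27.6, 30.3 and 36.2 CPM in 1CT and at 41.9, 41.3 and 39.8 CPM in 1CT-A, with a log2 fold change of 0.35 ± 0.11 (SE, edgeR adjusted p = 0.0156) that gave adjusted p = 0.0754 without 1CT replicate 1. YARS ranged from 65.4 to 72.9 CPM in 1CT and from 80.7 to 85.4 CPM in 1CT-A, with a log2 fold change of 0.25 ± 0.08 (SE, adjusted p = 0.0192). MARS ranged from 117 to 131 CPM in 1CT and from 144 to 150 CPM in 1CT-A, with a log2 fold change of 0.20 ± 0.07 (SE, adjusted p = 0.0383). The lines did not overlap for any of the 3 genes. For YARS the adjusted p was 0.076 and 0.0548 without 1CT replicates 1 and 2, and 0.0624 and 0.0677 without 1CT-A replicates 1 and 3. For MARS it was 0.155 and 0.0629 without 1CT replicates 1 and 2, and 0.105, 0.0897 and 0.0665 without 1CT-A replicates 1, 2 and 3.

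Among the synthetases that were lower in 1CT-A, HARS, for histidine, had the largest difference, from 58.4, 61.0 and 69.7 CPM in 1CT to 43.2, 46.3 and 40.9 CPM in 1CT-A, a log2 fold change of -0.58 ± 0.09 (SE, edgeR adjusted p = 2.27e-04). LARS, for leucine, was counted at 75.5, 76.3 and 80.9 CPM in 1CT and at 57.6, 59.0 and 52.8 CPM in 1CT-A, with a log2 fold change of -0.50 ± 0.08 (SE, adjusted p = 2.35e-04). All 3 1CT-A values of each gene lay below the 1CT values. RARS, for arginine, was counted at 255, 248 and 276 CPM in 1CT and at 195, 196 and 192 CPM in 1CT-A, with a log2 fold change of -0.46 ± 0.07 (SE, adjusted p = 1.35e-04). SARS, for serine, was counted at 157, 159 and 184 CPM in 1CT and at 137, 130 and 121 CPM in 1CT-A, with a log2 fold change of -0.41 ± 0.09 (SE, adjusted p = 0.00154). The serine enzyme was thus lower in the libraries in which PHGDH and PSAT1 were higher. GARS, for glycine, ranged from 159 to 177 CPM in 1CT and from 133 to 145 CPM in 1CT-A, with a log2 fold change of -0.28 ± 0.08 (SE, adjusted p = 0.0079) and adjusted p = 0.0507 without 1CT-A replicate 2.

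The 8 synthetase subunits that did not pass the test had log2 fold changes from -0.08 (QARS) to 0.23 (FARSA). EPRS, which joins the enzymes for glutamate and proline in 1 protein, was counted at 66.0, 66.6 and 66.0 CPM in 1CT and at 68.8, 70.8 and 68.0 CPM in 1CT-A, with a log2 fold change of 0.03 ± 0.07 (SE, edgeR adjusted p = 0.798). CARS, for cysteine, ranged from 69.9 to 80.0 CPM in 1CT and from 73.5 to 80.7 CPM in 1CT-A, with a log2 fold change of 0.00 ± 0.08 (SE, adjusted p = 0.982). QARS, for glutamine, ranged from 39.04 to 44.8 CPM in 1CT and from 40.0 to 40.7 CPM in 1CT-A, inside the 1CT range. DARS, for aspartate, ranged from 54.2 to 61.6 CPM in 1CT and from 61.2 to 71.3 CPM in 1CT-A, with a log2 fold change of 0.15 ± 0.09 (SE, adjusted p = 0.157). None of these was called in any alternative fit.

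AARS for alanine, KARS for lysine and the subunits FARSA and FARSB of the phenylalanine enzyme were called higher once 1CT replicate 3 was left out. AARS was counted at 18.2, 22.0 and 24.9 CPM in 1CT and at 25.5, 24.9 and 25.4 CPM in 1CT-A, with edgeR adjusted p = 0.224 over all libraries and 0.0356 without that replicate. KARS ranged from 106 to 123 CPM in 1CT and from 122 to 133 CPM in 1CT-A, with adjusted p = 0.182 and 0.0126. FARSB ranged from 74.9 to 89.6 CPM in 1CT and from 90.7 to 95.3 CPM in 1CT-A, with adjusted p = 0.16 and 0.0112. Replicate 3 held the highest 1CT value of each of these genes. FARSA was counted at 226, 220 and 282 CPM in 1CT and at 327, 261 and 289 CPM in 1CT-A, with adjusted p = 0.0923 and 0.00132, and it was also called without 1CT-A replicate 2 at 0.047. In all, 19 of the genes were higher without 1CT replicate 3 and none of the 21 calls was lost, while 10 were higher without 1CT replicate 1. Of all genes, 25.3% and 22.1% were called higher in these fits.

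FARSA and FARSB form 1 enzyme in equal copies. The ratio of their counts, which is not corrected for how well each 3′ end is captured, was 2.97 ± 0.20 in 1CT and 3.15 ± 0.40 in 1CT-A (SD, n = 3). The difference of 0.18 was within the spread of the replicates (two-sided exact permutation p = 0.5, where 3 libraries against 3 cannot give less than 0.1). It rested on single libraries, at -0.0114 without 1CT-A replicate 1, 0.0724 without 1CT replicate 2 and 0.392 without 1CT-A replicate 2.

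The scaffold proteins of the multi-synthetase complex were both slightly higher in 1CT-A. AIMP1 was counted at 49.6, 50.7 and 50.7 CPM in 1CT and at 58.9, 60.9 and 60.3 CPM in 1CT-A, with a log2 fold change of 0.22 ± 0.08 (SE, edgeR adjusted p = 0.0322). AIMP2 was counted at 87.2, 93.5 and 105 CPM in 1CT and at 122, 116 and 113 CPM in 1CT-A, with a log2 fold change of 0.25 ± 0.09 (SE, adjusted p = 0.026). Neither gene overlapped between the lines, but the calls were lost in most fits that left out a library. For AIMP1 the adjusted p was 0.0883 and 0.0629 without 1CT replicates 1 and 2, and 0.0637, 0.0836 and 0.0892 without 1CT-A replicates 1, 2 and 3. For AIMP2 it was 0.115 and 0.0692 without 1CT replicates 1 and 2, and 0.093 and 0.054 without 1CT-A replicates 1 and 2.

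The third scaffold, EEF1E1, is not among the 39 genes and was also higher, at 49.8, 52.5 and 44.3 CPM in 1CT and 63.6, 71.6 and 69.3 CPM in 1CT-A, with a log2 fold change of 0.44 ± 0.09 (SE, edgeR adjusted p = 9.52e-04). Over the 11 proteins of the complex, 5 were higher (IARS, MARS and the scaffolds), 2 were lower (LARS and RARS) and 4 were not called (EPRS, QARS, KARS and DARS). Their median log2 fold change was 0.15, against -0.01 for all genes tested. The shares called were 45.5% higher and 18.2% lower, beside 25.0% and 26.0% of all genes tested.

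**Figure D3:**
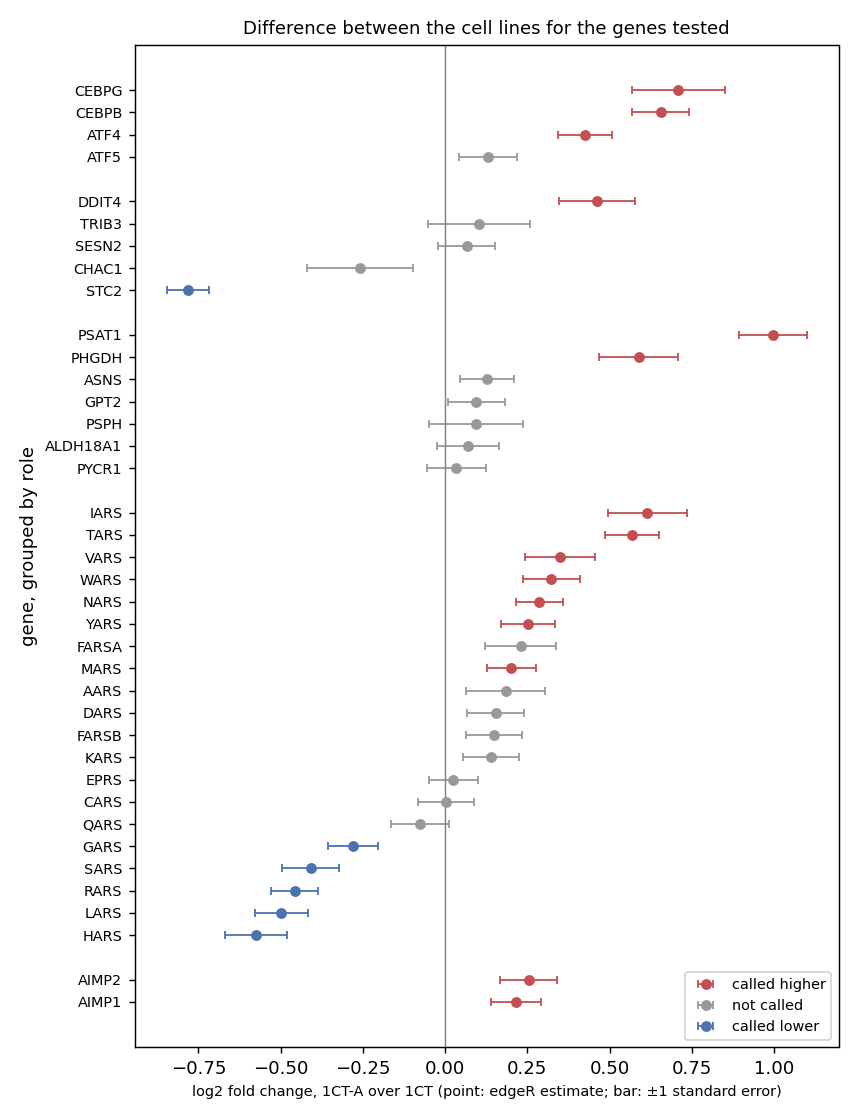
Log2 fold change of 1CT-A over 1CT for the 38 genes tested, grouped by role and ordered by value, with the edgeR estimate as a point and 1 standard error as a bar (3 libraries per line). Red marks genes called higher, blue genes called lower and grey genes not called at an adjusted p of 0.05. The synthetases run from HARS at -0.58 to IARS at 0.61.

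Sorting the synthetases by whether they are commonly listed as ATF4 targets gave calls in both directions in each class. Of the 12 listed enzymes, 6 were higher (IARS, MARS, NARS, TARS, WARS and YARS), 3 were lower (GARS, LARS and SARS) and 3 were not called, with a median log2 fold change of 0.19. Of the 8 others, VARS was higher, HARS and RARS were lower and 5 were not called, with a median of 0.14. Over all genes tested, 25.0% were called higher and 26.0% lower, and the share called lower was 25.0% in each class. Of the listed enzymes, MARS lost its call in 8 of 14 alternative fits, YARS in 5 and GARS in 1. Of the others, VARS lost it in 1. The difference between the classes was not tested.

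The genes with the response element core shown above were read in the same way. Of the 10, 5 were higher (CEBPG, IARS, MARS, NARS and TARS), GARS was lower, and CHAC1, ASNS, AARS and CARS were not called. Of the 22 with a window and no match, 8 were higher, 4 were lower, 9 were not called and VLDLR was not tested. Among all genes tested, 25.0% were called higher and 26.0% lower. The difference between genes with and without a match was not tested. ASNS and GARS, the genes whose core reads TGATGAAA, had log2 fold changes of 0.13 and -0.28. ATF4, CEBPB, PHGDH and PSAT1 were higher without a match in the window, which says only that these letters are not in it.

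**Figure D4:**
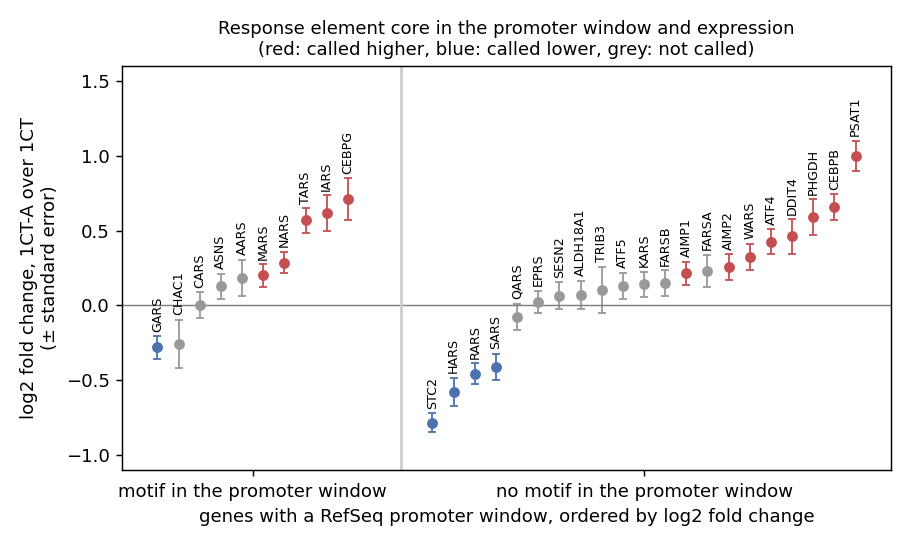
Log2 fold change of 1CT-A over 1CT with its standard error for the tested genes with a RefSeq promoter window, 10 with the response element core and 21 without it, ordered by value. Red marks calls higher, blue calls lower and grey no call. Genes with the core run from GARS at -0.28 to CEBPG at 0.71, and genes without it from STC2 at -0.78 to PSAT1 at 1.00.

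Some of these genes share their 3′ end, the part that the libraries count, with a neighbour in the GENCODE v44 annotation, and whether the counting used the strand was not given in the sources used here. Within the last 500 bases MARS overlaps DDIT3 on the opposite strand, AIMP2 overlaps EIF2AK1 on the opposite strand, and HARS overlaps WDR55 on the opposite strand and DND1 on the same one. LARS, WARS, PYCR1 and ATF5 have an unnamed gene on the opposite strand there, and ASNS has an unnamed one on its own strand. The counts of these 8 genes are uncertain to that extent. DDIT3, which encodes the stress factor CHOP, was counted at 46.5, 45.8 and 47.5 CPM in 1CT and at 52.8, 49.0 and 51.4 CPM in 1CT-A, and its log2 fold change of 0.09 ± 0.08 did not pass the test (SE, edgeR adjusted p = 0.362).

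Of 25 other genes described as ATF4 targets, FGF21 had no count, and of the 24 tested 9 were higher in 1CT-A, 6 were lower and 9 were not called, with a median log2 fold change of 0.15. The shares called were 37.5% higher and 25.0% lower, beside 25.0% and 26.0% of all genes tested, so the share lower was near that of all genes. CEBPD, a C/EBP factor, was counted at 33.7, 39.4 and 28.9 CPM in 1CT and at 71.2, 86.2 and 74.8 CPM in 1CT-A, with a log2 fold change of 1.15 ± 0.11 (SE, edgeR adjusted p = 2.49e-06). XPOT, which exports tRNA from the nucleus, was counted at 13.4, 9.18 and 1.93 CPM in 1CT and at 16.7, 40.1 and 24.5 CPM in 1CT-A, with a log2 fold change of 1.67 ± 0.41 (SE, adjusted p = 0.00386). Its libraries were widely spread within each line. The log2 fold change of XPOT ran from 1.24 to 2.22 over the fits that left out 1 library, and DESeq2 gave an adjusted p of 0.0628.

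Upstream of ATF4, the list of eIF2 kinases, eIF2 alpha and its phosphatases held 12 genes, of which 4 were higher, 1 was lower and 7 were not called. As shares, 33.3% were higher and 8.33% lower, beside 25.0% and 26.0% of all genes tested. EIF2S1, the eIF2 alpha subunit that the kinases phosphorylate, was counted at 84.7, 86.2 and 83.7 CPM in 1CT and at 102, 103 and 113 CPM in 1CT-A, with a log2 fold change of 0.28 ± 0.07 (SE, edgeR adjusted p = 0.00649). PPP1CB and PPP1CC, catalytic subunits of the phosphatase that reverses the mark among many other substrates, had log2 fold changes of 0.44 ± 0.09 and 0.45 ± 0.08 (SE, adjusted p = 0.00158 and 3.5e-04). The lines did not overlap for any of these 3 genes. The single lower gene, EIF2AK4, is the kinase GCN2 that senses uncharged tRNA, and was picked after its values were seen. It was counted at 139, 131 and 156 CPM in 1CT and at 121, 121 and 117 CPM in 1CT-A, with a log2 fold change of -0.29 ± 0.08 (SE, adjusted p = 0.0104) and adjusted p = 0.0546 without 1CT-A replicate 3.

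The mitochondrial synthetases read here are those with a gene of their own, outside the set described above. The list holds no gene for glycine, lysine or glutamine, so it does not cover every amino acid. Of 17 tested, 3 were higher in 1CT-A, 2 were lower and 12 were not called, with a median log2 fold change of 0.16. That is 17.6% and 11.8%, below the 25.0% and 26.0% of all genes tested. IARS2, the mitochondrial counterpart of IARS, was counted at 106, 99.2 and 66.4 CPM in 1CT and at 124, 141 and 137 CPM in 1CT-A, with a log2 fold change of 0.53 ± 0.13 (SE, edgeR adjusted p = 0.0042). RARS2, the counterpart of RARS, was counted at 14.2, 12.7 and 14.4 CPM in 1CT and at 11.3, 10.3 and 9.05 CPM in 1CT-A, with a log2 fold change of -0.47 ± 0.14 (SE, adjusted p = 0.0134) and adjusted p = 0.0712 without 1CT-A replicate 3. WARS2 had a log2 fold change of 0.44 ± 0.16 (SE, adjusted p = 0.0345), and its adjusted p was 0.104 and 0.0565 without 1CT replicates 1 and 3 and 0.157 and 0.0627 without 1CT-A replicates 2 and 3.

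Of 15 other enzymes of amino acid metabolism, 13 were tested, of which 4 were higher in 1CT-A, 3 were lower and 6 were not called. Their shares of 30.8% and 23.1% were near the 25.0% and 26.0% of all genes tested. GLUL, which makes glutamine from glutamate, was counted at 82.6, 84.2 and 75.6 CPM in 1CT and at 39.4, 41.2 and 44.8 CPM in 1CT-A, with a log2 fold change of -0.99 ± 0.08 (SE, edgeR adjusted p = 7.92e-07). All 3 1CT-A values lay below the 1CT values. SHMT1, which passes the one-carbon unit of serine to folate, was counted at 12.5, 14.2 and 10.4 CPM in 1CT and at 19.1, 24.0 and 24.8 CPM in 1CT-A, with a log2 fold change of 0.83 ± 0.14 (SE, adjusted p = 3.59e-04).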

How the data were processed

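The authors deposited 1 table per library with raw counts, whole numbers of reads per gene symbol, without normalization or pooling. Per the labels, total RNA (500 ng, Trizol) of untreated cells was made into QuantSeq 3′ libraries. The study's methods describe bulk RNA sequencing with another extraction kit, and also name a microarray service and a cDNA microarray. The submitters' processing notes name Bowtie2, edgeR and hg19. The counting tool, annotation and use of strand are not given in the sources used here. Each table has 25737 entries for 24462 symbols, and repeated entries were added together. Among the 39 genes this touched VARS, where 1 of 7 entries held counts. No per-sample column was left unused.

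CPM values are counts scaled to a library total of 1000000. The test was edgeR 4.0.16 in R 4.3.3 (quasi-likelihood, TMM factors, filterByExpr with a minimum count of 10, Benjamini-Hochberg adjustment over 12514 genes), 1CT-A against 1CT, called at an adjusted p under 0.05 and checked on simulated data. The simulated data gave every gene the same dispersion and held no library that departed from the others. They do not cover the spread of 1CT replicate 3. SE is the estimate divided by the square root of the F statistic. Other fits used DESeq2 1.42.0, limma 3.58.1, other normalizations and filters, a replicate block, and each library left out. The labels do not say that replicates came from separate cultures, so p-values measure the spread between these libraries, which may be technical. Intervals cover counting error only. The thresholds of the study's methods are a 2-fold change and an unadjusted p under 0.01 in a two-tailed test per gene. The scale, gene filter and variance model of that test are not stated there. Here it was a t-test with equal variances on log2 CPM with a small offset, over the genes that edgeR tested.

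The genes and lists were chosen with earlier results of these data known. All 39 genes are named. Of other lists, the genes called with an absolute log2 fold change of at least 1 are named, or else up to 3 with the smallest adjusted p. A gene that this rule names is not reported here. DDIT3, EIF2AK4 and EEF1E1 stand outside this rule. GCN1L1 was read under its newer symbol. The marker lists give 3 of 3 tested epithelial genes lower, 3 higher and 4 lower of 10 mesenchymal genes, 1 of 1 tested immune gene lower and no tested endothelial gene. Of all genes tested, 25.0% were called higher and 26.0% lower. KRT19, one of the epithelial genes, passed the filter on low counts only through 1CT. CLDN7, another of them, had edgeR adjusted p = 0.0654 without 1CT replicate 1, and 0.062 and 0.107 without 1CT-A replicates 1 and 2. RefSeq promoter windows are on GRCh38.p14 and were matched by symbol, since the counts are on hg19.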

Additional observations from a re-analysis of the deposited data

How the results depend on the processing

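Over 14 alternative fits, 488 of 532 values of single genes kept their direction and their side of the threshold, 28 lost the call, 7 gained it and 9 changed sign. Of the 21 genes called, 15 were called in every alternative, and 13 of the 17 not called were called in none. The number of the 39 genes past 2-fold was 0. It became 1, PSAT1, with library size only, without a filter on low counts and with the two-tailed test modelled on the study's methods. It ran from 0 to 1 when a library was left out. The changes of sign were all in genes that were not called. With upper-quartile factors, which lowered the median of the genes tested to -0.06, the log2 fold change was -0.02 for PYCR1, -0.05 for CARS and -0.03 for EPRS, and CARS was at -0.01 with at least 10 counts in every library. Leaving out a library gave -0.02 to 0.22 for TRIB3, -0.01 to 0.26 for PSPH, -0.05 to 0.15 for PYCR1 and -0.05 to 0.06 for CARS. Upper-quartile factors also gave 11 genes higher and 6 lower, with MARS, YARS, AIMP1 and AIMP2 lost, while 21.4% of all genes were called higher and 29.3% lower.

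With a replicate block, 13 of the genes were higher and 6 lower, against 15 and 6 without it, and over all genes 2993 and 3098 against 3131 and 3257. MARS and AIMP1 lost their call (adjusted p = 0.0705 and 0.0686). Same-numbered libraries had correlations of deviations of -0.16, 0.22 and -0.14 over 8224 genes, and differently numbered ones ran from -0.29 to 0.34. These values do not show a pairing by number, and with 3 libraries per line they cannot exclude one. At an adjusted p under 0.01, 10 of the genes were higher and 6 lower, beside 17.8% and 19.6% of all genes tested. For low genes such as VLDLR, depth sets the limit, as 3 counts are 0.238 to 0.385 CPM.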

Other observations

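The ratio of IARS to LARS counts, a pair chosen after its values were seen, was 0.64, 0.78 and 0.48 in the 1CT libraries and 1.31, 1.35 and 1.44 in the 1CT-A libraries. Both enzymes belong to the multi-synthetase complex, and neither ratio depends on the scaling of the libraries. The ratio of PSAT1 to PSPH counts, chosen in the same way, was 1.96, 2.15 and 1.36 in 1CT and 3.10, 3.72 and 3.21 in 1CT-A. No test was run on either pair. A ratio within a library shows that 2 genes changed unequally and not which of them moved.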
